A study of Mus musculus and Homo sapiens with 47 samples.

Results

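Late Eed-deleted intestinal stem cells were compared with cells of the same kind taken at day 9. The late group held 3 bulk RNA libraries, namely day 21 replicates 1 and 2 and day 30 replicate 1, and the day 9 group held replicates 1 to 3. These 6 libraries were chosen by their labelled day, out of 8 mouse bulk libraries and 47 samples in the series, and all genes were described. Both groups came from adult mice of genotype Eed F/F; Lgr5EGFP-IRES-CreERT on a B6;129 mixed background. Both had received 1-2 mg of tamoxifen, which switches the Cre on, on 5 successive days and on every other day from then on. The deletion and the drug were therefore common to the groups, time differed between them, and no library of cells with intact Eed entered the comparison. The event from which days are counted is not stated in the labels, nor are the ages of the mice.

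Cre and GFP are driven from Lgr5, so recombination starts in the stem cells at the base of the crypt, and GFP+ cells were sorted from the epithelium of the proximal intestine, although the source label reads villus cells. The labels speak of biological replicates without naming animals, so the p-values below reflect how far libraries of a group differ, some of which may be technical. The other sample labelled day 30 was not analysed here. In bulk RNA, fewer cells of a type and less RNA per cell cannot be told apart.

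EED is a core subunit of Polycomb repressive complex 2 (PRC2), which methylates histone H3 at lysine 27 and binds the mark it makes. The complex keeps developmental regulators such as the Hox genes, and the Cdkn2a locus, silent in differentiated tissues, mostly at CpG-rich promoters. Methylated histones are lost by dilution as cells divide, and Lgr5+ stem cells divide often, giving rise to absorptive enterocytes and to secretory goblet, Paneth, enteroendocrine and tuft cells.

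The 6 libraries held between 21965280 and 27900351 gene counts. The first principal component of log2 CPM (CPM are counts relative to the TMM-scaled library size) took 66.6% of the variance and set the late libraries apart from the day 9 libraries, and the second took 14% and spread the late libraries, with day 21 replicate 1 at one end and day 30 at the other. Xist and Y-linked counts differed too: day 21 replicate 2 and day 30 replicate 1 had 4336 and 5048 Y-linked counts, whereas day 21 replicate 1 had 4 and the day 9 libraries had 0. Library sex thus differed within the late group, and every day 9 library was of the female type. Day 21 replicate 1 was the only late library of that type. A fit with library sex as a covariate therefore sets that 1 late library against day 9. Its values below are not a sex-adjusted comparison of all 3 late libraries. Of 13668 genes tested, 442 were set aside: 424 were X- or Y-linked, and 18 were under 1 CPM in all late libraries while reaching at least 10 CPM in all 3 of day 9, a possible counting difference. The other 13226 genes are described.

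Of these 13226 genes, 3202 (24.2%) were called at an adjusted p of 0.05 (edgeR's quasi-likelihood F test). Expression was higher in late cells for 1482 genes (11.2%) and lower for 1720 genes (13.0%). Changes of at least 2-fold were called for 619 rises (4.68%) and 475 falls (3.59%), and changes of at least 4-fold for 278 rises and 193 falls. The median change of all genes was 0.01 on the log2 scale. Of the genes that rose, 397 averaged under 1 CPM at day 9 and 770 averaged at least 10 CPM. Of the genes that fell, 1524 averaged at least 10 CPM at day 9. With library sex as a covariate, added after the data were seen, 1619 genes were called, 785 higher and 834 lower. Scaling by library totals instead of TMM raised the median of all genes by 0.20, to 0.21, and moved the split to 3449 higher and 940 lower. Without day 9 replicate 1, day 9 replicate 3 or day 21 replicate 2 the count was 2006, 1998 and 1986 in that order. No called gene changed sign in any of these fits.

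**Figure D1:**
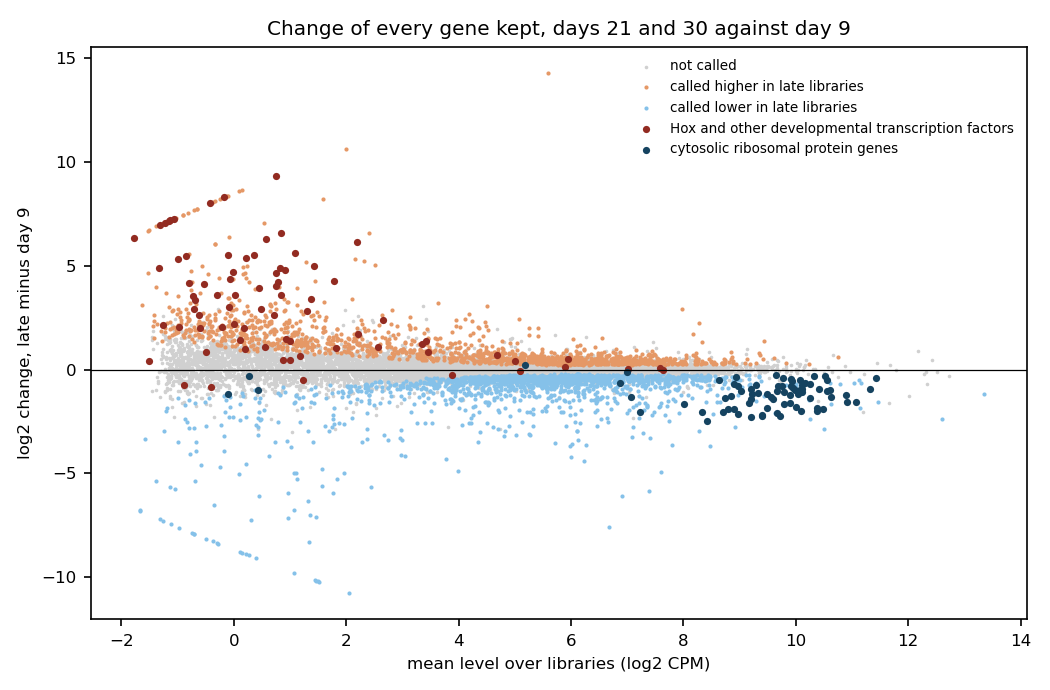
Fitted log2 change (late minus day 9) of the 13226 genes described against their mean log2 CPM. Hox and other developmental transcription factors (dark red) lie mostly above 0 at low levels and cytosolic ribosomal protein genes (dark blue) mostly below 0 at high levels; the slanted rows of points at the left are genes at 0 counts in every library of 1 group, whose fitted change depends on the prior count.

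Of the cyclin-dependent kinase (CDK) inhibitors, which brake the cell cycle, 4 of 7 rose and 0 fell. Cdkn2a, which encodes p16INK4A and ARF and is a classical PRC2 target, changed most. Its level was 12.3 and 11.7 CPM in the day 21 libraries and 8.15 CPM in the day 30 library, against 0.39, 0.287 and 0.291 CPM at day 9. The groups were far apart, the day 30 library being the lowest of the late ones. The log2 change was 5.03 ± 0.28 (SE; adjusted p = 3.23e-05). The neighbouring Cdkn2b, which encodes p15INK4B, stood at 27.9, 28.8 and 11.9 CPM in late libraries, against 10.8, 7.74 and 8.98 CPM at day 9 (log2 change 1.31 ± 0.33, adjusted p = 0.0287). Its day 30 level lay just above the highest day 9 level. Cdkn2c and Cdkn1c rose by 0.82 ± 0.16 and 0.98 ± 0.20 on the log2 scale (adjusted p = 0.0102 and 0.0128). Cdkn1a, the p53-induced inhibitor p21, averaged 64.5 CPM in late cells and 57.9 CPM at day 9 and did not pass the test (adjusted p = 0.642). The sex covariate left 1 call in this list, Cdkn2a. The calls of Cdkn2a, Cdkn2c and Cdkn1c held whichever library was left out, and that of Cdkn2b was lost without any single library other than day 30 (highest adjusted p 0.0954). Cdkn2a also appeared in the single-cell libraries of the same genotype, 1 library per day: it had 0 UMIs (unique molecular counts) at day 7, which allows up to 0.0797 CPM, then 1.22 CPM at day 12 (95% exact Poisson interval 0.908 to 1.6) and 26.2 CPM at day 16 (24.6 to 27.8). These intervals cover counting error only.

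The gene has a start for each of its 2 products, and gene-level counts do not separate them. The 250 bases before each start are shown because the Cdkn2a rise can come from either, together with those of Barx1, a homeobox gene that also rose, and of Mptx1, a Paneth cell gene that rose (RefSeq, GRCm38.p6; capitals mark CpG, read on the gene's strand). They lie at chr4:89294620-89294869 (minus strand, first start), chr4:89282193-89282442 (minus strand, second start), chr13:48662786-48663035 (plus strand) and chr1:174330268-174330517 (plus strand).
Cdkn2a first start: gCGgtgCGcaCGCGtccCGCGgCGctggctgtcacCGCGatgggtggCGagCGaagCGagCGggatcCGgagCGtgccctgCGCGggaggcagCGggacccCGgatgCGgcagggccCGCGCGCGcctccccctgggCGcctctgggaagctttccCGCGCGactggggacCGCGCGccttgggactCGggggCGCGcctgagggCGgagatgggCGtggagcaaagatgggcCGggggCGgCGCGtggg
Cdkn2a second start: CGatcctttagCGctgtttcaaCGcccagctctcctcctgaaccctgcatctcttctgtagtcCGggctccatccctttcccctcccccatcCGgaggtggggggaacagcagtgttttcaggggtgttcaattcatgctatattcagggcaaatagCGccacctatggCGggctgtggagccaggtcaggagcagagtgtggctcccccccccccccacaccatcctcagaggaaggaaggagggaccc
Barx1: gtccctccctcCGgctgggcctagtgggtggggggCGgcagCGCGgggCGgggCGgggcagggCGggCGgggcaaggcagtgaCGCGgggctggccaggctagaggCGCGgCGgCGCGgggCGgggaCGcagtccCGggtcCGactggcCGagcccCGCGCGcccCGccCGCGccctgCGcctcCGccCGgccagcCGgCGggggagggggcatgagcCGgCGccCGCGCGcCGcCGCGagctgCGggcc
Mptx1: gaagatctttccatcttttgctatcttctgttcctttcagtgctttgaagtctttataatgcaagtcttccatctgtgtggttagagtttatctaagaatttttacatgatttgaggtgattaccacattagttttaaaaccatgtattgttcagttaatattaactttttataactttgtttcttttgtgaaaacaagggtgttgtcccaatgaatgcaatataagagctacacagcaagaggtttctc
The stretches at the first Cdkn2a start and at Barx1 each hold 40 CpG, as many as or more than which are found in 1.31% of the 32851 RefSeq stretches of this length. The second Cdkn2a start holds 7 CpG, a number reached in 46.3% of them, and Mptx1 holds 0. The median is 6. Genes that rose thus differed widely in CpG content, and no site is inferred from these letters.

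Hox genes, which encode the homeodomain factors that set position along the body axis, were higher in late cells almost as a group. Of 39 listed, 23 were tested, 17 rose (73.9%, against 11.2% of all genes described) and 0 fell. Passing the filter on low counts depended on the late level, so these are not all members. The median log2 change was 3.58, or 3.38 with genes at 0 in day 9 set to their bounds. HoxA had 5 calls among 8 tested, HoxB 6 among 9, and HoxC and HoxD 3 among 3 each. Hoxb13, the posterior member of its cluster, had 6.51 and 8.64 CPM in the day 21 libraries and 10.8 CPM in the day 30 library, against 0, 0.287 and 0.0486 CPM at day 9 (log2 change 6.16 ± 0.68, adjusted p = 0.00103). No day 9 library came near any late one. Hoxa10 stood at 4.38, 3.63 and 5.41 CPM in late libraries, against 0.651, 0.287 and 0.34 CPM at day 9. Hoxa9 had 3.13, 3.57 and 5.45 CPM in late libraries and 0.607, 0.533 and 0.583 CPM at day 9. Posterior genes at 0 counts in every day 9 library included Hoxd13, at least 16.7-fold higher in late libraries, and Hoxa13, at least 15.9-fold higher. The bounds take 3 counts over the day 9 group. Each of the 17 calls held whichever library was left out. The 6 tested members that were not called were Hoxa2, Hoxa4, Hoxa5, Hoxb2, Hoxb3 and Hoxb4, of which Hoxb2 averaged 1.88 CPM in late cells and 2.65 CPM at day 9. Levels stayed low throughout. The summed level of all 39 listed genes was 64.7, 54.5 and 76.4 CPM in late libraries. At day 9 it was 10.3, 23.8 and 6.85 CPM.

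Developmental transcription factors outside the Hox clusters moved in the same direction. Of 128 listed, 55 were tested, 38 rose (69.1%) and 0 fell, and the median log2 change was 2.38. As for the Hox genes, members low at day 9 could pass the filter through their late level alone, so the share and the median are not those of all 128. With the sex covariate 26 were called higher and 0 lower. Of the 38 calls, 30 held in each of 6 fits that left out 1 library. En2, an Engrailed factor of the midbrain and hindbrain, had 3.83, 4.3 and 6.52 CPM in late libraries, against 0.0867, 0.205 and 0.146 CPM at day 9 (log2 change 5.01 ± 0.40, adjusted p = 0.000218). Barx1, a homeobox gene of the stomach mesenchyme, had 4.49, 5.5 and 8.75 CPM in late libraries and 0.173, 0.41 and 0.389 CPM at day 9 (4.25 ± 0.42, adjusted p = 0.000623). For both genes, day 30 was the highest late library and the groups did not overlap. Pax3, a regulator of neural crest and muscle precursors, had 2.87, 3.73 and 4.98 CPM in late libraries, against 0, 0.164 and 0.0486 CPM at day 9. Zic1, a factor of the dorsal neural tube, had 4.34, 1.4 and 3.48 CPM in late libraries and no count at day 9, a rise of at least 68.8-fold. Sim2 had 2 counts in the day 9 group, and its ratio of late to day 9 levels was 112 (95% exact interval 30.6 to 927). Pax2, Pou3f3 and Foxl2 were also without a count at day 9, with late levels between 0.433 and 2.21 CPM, and rose at least 28.1-fold, 43.8-fold and 34.4-fold. Members already expressed in the intestine moved little: Gata4 averaged 198 CPM in late cells and 186 CPM at day 9, Gata6 130.0 CPM and 129 CPM, and Onecut2 197 CPM and 203 CPM, and none passed the test.

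Genes of fetal growth and imprinted genes gave 11 rises (57.9%) and 1 fall among 19 tested, with a median log2 change of 1.72. Igf2bp3 and Igf2bp1, RNA-binding proteins of fetal tissues, and their namesake Igf2, a fetal growth factor, all rose. Igf2 had 34.1, 29.9 and 29.1 CPM in late libraries, against 5.2, 5.29 and 4.03 CPM at day 9 (log2 change 2.68 ± 0.14, adjusted p = 2.69e-05). Igf2bp3 had 31.1, 28.7 and 33.7 CPM in late libraries, against 6.03, 5.82 and 6.75 CPM at day 9 (2.33 ± 0.12, adjusted p = 1.84e-05). Igf2bp1 had 9.09, 8.77 and 10.1 CPM in late libraries and 0.0867, 0.451 and 0.194 CPM at day 9 (5.21 ± 0.44). The 3 late libraries lay close together for each of these genes. Meg3, an imprinted noncoding RNA, averaged 4.87 ± 1.63 CPM in late cells and 0.245 ± 0.0867 CPM at day 9 (SD, n = 3 each; log2 change 4.27 ± 0.41). Its imprinted neighbours Dlk1 and Rian rose as well, by 4.38 and 3.22 on the log2 scale, as did Grb10 by 2.65. The fall was Ascl2, a stem cell factor that is also imprinted in the placenta, at 36.2 CPM in late cells and 51.5 CPM at day 9 (-0.51 ± 0.11, adjusted p = 0.0186). Of these 12 calls, 9 held whichever library was left out; those of Ascl2, Nnat and Peg10 did not (highest adjusted p 0.0628, 0.148 and 0.0575). Hmga2 and Peg3 were not called. Of 13 markers of the fetal or regenerating epithelium, 2 rose (15.4%, against 11.2% of all genes described). They were Spp1, a secreted phosphoprotein (3.86, 5.03 and 4.44 CPM in late libraries, against 0.0434, 0.205 and 0.0971 CPM at day 9), and Anxa3 (log2 change 1.40 ± 0.21). In the single-cell libraries both were lower on day 16 than on day 7. Spp1 had 0.877 CPM on day 7, 9.11 CPM on day 12 and 0.206 CPM on day 16, and Anxa3 had 10.4, 8.35 and 4.31 CPM.

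**Figure D2:**
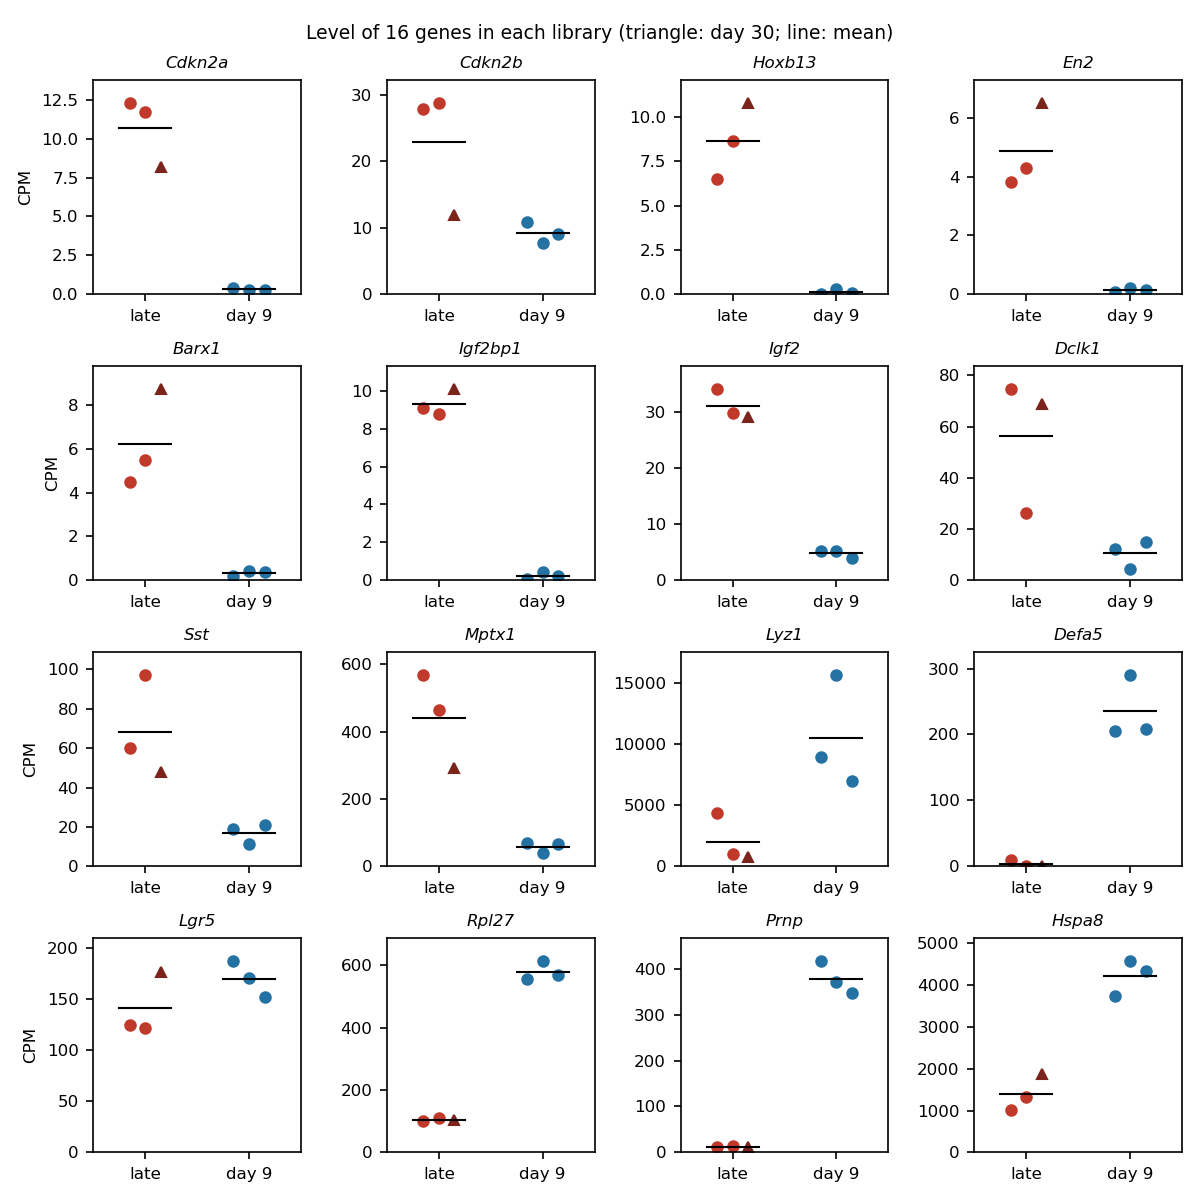
CPM of 16 genes in each library, late libraries at the left of each panel (triangle: day 30) and day 9 libraries at the right, with lines at the means and axes that start at 0. Cdkn2a, Hoxb13, En2, Barx1, Igf2bp1 and Igf2 are higher in every late library than in any day 9 library, Lyz1, Defa5, Rpl27, Prnp and Hspa8 are lower, and Lgr5 overlaps.

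Eed itself was not called, and the calls among genes of the Polycomb machinery went both ways. Eed had 35.5, 39.3 and 38.6 CPM in late libraries, against 46.5, 39.9 and 46.5 CPM at day 9 (log2 change -0.23 ± 0.09, adjusted p = 0.114). The transcript was thus counted in both groups at like levels. Both had received tamoxifen and counts are per gene, so this does not check the deletion. The PRC2 subunits Ezh2 and Suz12 were not called, at 116 CPM and 162 CPM in late cells and 108 CPM and 176 CPM at day 9. Of 11 PRC2 genes, the accessory subunits Phf19 (13.4, 12.4 and 14.1 CPM late, against 8.8, 7.21 and 6.99 CPM at day 9; adjusted p = 0.0089) and Jarid2 (log2 change 0.25 ± 0.07) rose, Jarid2's call being lost without any single library other than day 9 replicate 2. Of 20 PRC1 genes, whose complex ubiquitinates histone H2A, 3 rose (15%) and 5 fell (25%). Over all genes described 11.2% rose and 13.0% fell, and of the PRC2 genes above 18.2% rose and 0 fell. Rybp had 19.7, 20.6 and 20.3 CPM in late libraries and 74.1, 73.3 and 71.9 CPM at day 9 (-1.85 ± 0.07, adjusted p = 5.3e-06), and Kdm2b, which brings PRC1 to unmethylated CpG islands, fell by 1.09 on the log2 scale. In the single-cell libraries Rybp had 18.3 CPM on day 16 and 23.6 CPM on day 7. Pcgf2 rose (0.82 ± 0.11), as did the reader subunits Cbx6 (87.2, 14 and 18.8 CPM late, against 5.03, 5.33 and 4.18 CPM at day 9; adjusted p = 0.0215) and Cbx7 (49.2, 20.4 and 20.4 CPM late, against 11.3, 10.9 and 11 CPM at day 9; adjusted p = 0.0246). Both were highest in day 21 replicate 1, and both calls were lost without any single day 9 library (highest adjusted p 0.079 and 0.0824). Of the 8 PRC1 calls, 4 held whichever library was left out. Of 12 H3K27 demethylases and MLL-type H3K4 methyltransferase subunits, which oppose Polycomb, 4 rose and 0 fell; Setd1b had 121, 130 and 121 CPM in late libraries, against 74.6, 61.5 and 67.4 CPM at day 9 (0.87 ± 0.09, adjusted p = 0.000695). The calls of Dpy30 and Setd1a in that list did not hold in every fit that left out 1 library (highest adjusted p 0.0593 and 0.123), and with the sex covariate 1 rise was called.

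Markers of the sorted cells remained expressed in the late bulk libraries. Of 29 stem cell markers, 2 rose and 2 fell, shares below those of all genes. Lgr5, the Wnt co-receptor that marks these cells, had 125 and 122 CPM in the day 21 libraries and 177 CPM in the day 30 library, against 187, 171 and 152 CPM at day 9, and the groups overlapped (adjusted p = 0.261). Olfm4, a secreted glycoprotein of crypt base cells, had 4958, 4844 and 8210 CPM in late libraries and 6623, 7697 and 8019 CPM at day 9 (adjusted p = 0.325). The day 21 libraries were the lowest and the day 30 library the highest of all 6. Ascl2 and the transporter Slc12a2 (1886, 1513 and 2166 CPM late, against 2543, 2712 and 2672 CPM at day 9) fell, and Msi1 and Ephb2 rose. None of these 4 calls held in every fit that left out 1 library (highest adjusted p 0.0611 for Ephb2 and 0.122 for Msi1). The list's median was -0.13, and 0.07 when scaled by library totals. Single-cell libraries gave other values: Lgr5 had 42.6 CPM on day 16 and 193 CPM on day 7, while Olfm4 had 418 CPM and 237 CPM. All 29 listed markers summed there to 3325 CPM on day 16 and 4744 CPM on day 7.

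Of 28 Wnt pathway genes, 10 rose (35.7%, against 11.2% of all genes described) and 0 fell. The list held 37 genes, and members low at day 9 could pass the filter on low counts through their late level alone. The share is therefore not that of the full list. Tcf7l2, a main transcription factor of Wnt signalling in the gut, had 54, 43.5 and 52.2 CPM in late libraries, against 27.8, 27.2 and 31 CPM at day 9 (log2 change 0.80 ± 0.11, adjusted p = 0.00266). Its relatives Tcf7, Tcf7l1 and Lef1 rose too, by 0.57, 2.15 and 1.41 on the log2 scale, as did the receptors Fzd3, Fzd4, Fzd6 and Lrp5 and the antagonists Sfrp1 and Sfrp2. Of the 10 calls, those of Tcf7l2, Fzd3 and Sfrp1 held whichever library was left out, and with the sex covariate 4 rises were called. Axin2, a target of the pathway, averaged 451 CPM in late cells and 429 CPM at day 9 and was not called. Of 24 BMP, hedgehog and FGF genes, 3 rose (12.5%) and 6 fell (25%), and 4 of these 9 calls held whichever library was left out. Fgf1 had 9.93, 7.27 and 9.96 CPM in late libraries and 105, 138 and 110 CPM at day 9 (-3.70 ± 0.17, adjusted p = 1.3e-05). It was also lower in the later single-cell library, at 1.99 CPM on day 16 and 51.1 CPM on day 7. The BMP target genes Id1 and Id3 fell by 0.88 and 0.95 on the log2 scale, and Ihh rose by 0.70. Of 22 Notch genes, 4 rose and 2 fell: Rbpj, the pathway's DNA-binding factor, had 30.3, 29.9 and 33.4 CPM in late libraries and 75.9, 63.9 and 75.9 CPM at day 9, and the feedback inhibitor Nrarp rose by 0.76. Among the 6 Notch calls, 3 held whichever library was left out, including those of Rbpj and Nrarp.

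Tuft cell markers were the cell type list with the largest share of rises: 15 of 20 tested (75%), with 0 falls and a median of 1.74. Tuft cells are rare chemosensory cells. Dclk1, a kinase that marks them, had 74.7 and 26.2 CPM in the day 21 libraries and 68.7 CPM in the day 30 library, against 12.3, 4.18 and 15.1 CPM at day 9 (log2 change 2.43 ± 0.54, adjusted p = 0.018). The cation channel Trpm5 had 73.8, 31.5 and 68.2 CPM in late libraries and 18.8, 11.5 and 25.2 CPM at day 9, and the lineage factor Pou2f3 21.5, 10.3 and 24.2 CPM against 8.15, 4.02 and 7.43 CPM. For each of these, day 21 replicate 2 was the lowest late library but lay above every day 9 library. The phospholipase Plcb2, the factors Hmx2, Hmx3 and Spib, and the eicosanoid enzymes Ptgs1, Ltc4s, Alox5 and Hpgds also rose. With the sex covariate 14 rises were called. Leaving out 1 library ended 10 of the 15 calls in at least 1 fit; Dclk1, for instance, reached an adjusted p of 0.0579 without day 9 replicate 1, and Hmx3, Hmx2, Plcb2, Ptgs1 and Ltc4s kept their calls. Summed over the list, the level did not separate the groups, at 1076, 566 and 1025 CPM in late libraries and 672, 671 and 730 CPM at day 9; Cd24a, the member with the most counts, which other crypt cells express too, averaged 498 CPM in late cells and 577 CPM at day 9.

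Enteroendocrine (hormone-secreting) markers gave 6 rises (22.2%) and 0 falls among 27. The somatostatin gene Sst had 60, 97.1 and 47.7 CPM in late libraries, against 19, 11.4 and 20.8 CPM at day 9 (log2 change 2.00 ± 0.32, adjusted p = 0.00491), and Gip, the incretin gene, 108, 203 and 103 CPM against 53.3, 38.6 and 54.2 CPM. The factors Pax6, Nkx2-2 and Fev also rose. Sst and Gip were highest in day 21 replicate 2, and 4 of the 6 calls held whichever library was left out. The summed level of the list overlapped between groups, at 1394, 1603 and 882 CPM in late libraries and 1048, 1379 and 963 CPM at day 9. Goblet cell markers gave 2 rises and 1 fall among 19: Zg16 had 212, 867 and 463 CPM in late libraries, against 119, 92.4 and 115 CPM at day 9 (2.24 ± 0.46), Bcas1 rose by 1.09, and Spink4 fell by 0.81. Muc2, the gel-forming mucin, averaged 2006 CPM in late cells and 1233 CPM at day 9 (adjusted p = 0.0601). Of 13 transcription factors of the secretory lineages, Pou2f3, Sox4 and Atoh1 rose and 0 fell. No goblet or secretory factor call held in all 6 fits that left out 1 library.

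Paneth cells, which secrete antimicrobial peptides beside the stem cells, gave mixed values. Of 21 markers, 1 rose and 2 fell. Lyz1, the Paneth lysozyme, had 4324 and 982 CPM in the day 21 libraries and 737 CPM in the day 30 library, against 8912, 15648 and 6959 CPM at day 9 (log2 change -2.38 ± 0.70, adjusted p = 0.0455). Defa5, a defensin, had 8.83, 1.2 and 0.468 CPM in late libraries and 206, 290 and 209 CPM at day 9 (-6.09 ± 0.90, adjusted p = 0.0038). Defensin genes are near-identical copies, so counts could be split among them, and Defa5 is uncertain on that ground. Mptx1, a pentraxin, moved the other way, with 568, 466 and 291 CPM in late libraries and 69.9, 40 and 65.7 CPM at day 9 (2.92 ± 0.30, adjusted p = 0.000816). It had 1026 CPM on day 16 and 1.57 CPM on day 7 in the single-cell libraries. Day 21 replicate 1 stood apart: the summed Paneth level was 15132 CPM there and 3206 and 2229 CPM in the other late libraries, against 17413, 29025 and 16445 CPM at day 9. The Lyz1 call was lost without any single library other than day 21 replicate 1 (highest adjusted p 0.128), while those of Defa5 and Mptx1 held. The list's median was -0.89 over the late group but 0.08 with the sex covariate.

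Enterocyte markers gave 0 calls among 32 by edgeR, with 2 at an unadjusted p under 0.05 and 2 called by DESeq2, and the late libraries spread more than the groups differed. Apoa4, an apolipoprotein of fat absorption, had 2034 and 144 CPM in the day 21 libraries and 58.5 CPM in the day 30 library, against 432, 332 and 359 CPM at day 9. The lactase gene Lct had 625, 92.1 and 22.3 CPM in late libraries and 149, 89.9 and 117 CPM at day 9. The summed level was 16812 CPM in day 21 replicate 1 and 6413 and 3927 CPM in the other late libraries, against 7389, 6176 and 7305 CPM at day 9. With the sex covariate, which leaves day 21 replicate 1 as the late library of the day 9 sex, 14 of the 32 were called higher.

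**Figure D3:**
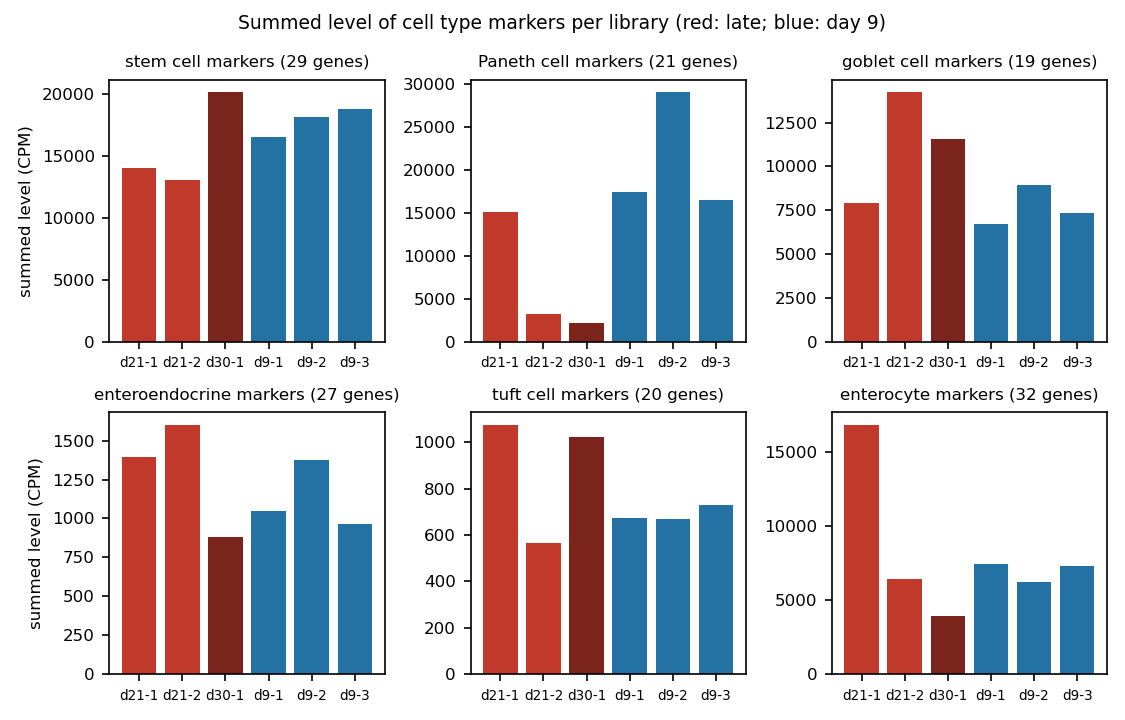
Summed CPM of 6 lists of cell type markers in each library, late libraries (red; dark red: day 30 replicate 1) left of day 9 libraries (blue). Enterocyte markers peak in day 21 replicate 1 at 16812 CPM, and Paneth markers are lowest in day 21 replicate 2 and day 30 at 3206 and 2229 CPM. Sums take every listed gene that was counted, while the numbers in panel titles are of the genes described.

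Transcription factors of intestinal identity changed little. Cdx2, the master factor of the intestine, averaged 215 ± 19.8 CPM in late cells and 206 ± 11.3 CPM at day 9 (SD, n = 3 each; adjusted p = 0.64 by edgeR). Of 20 such factors, 4 rose (20%) and 0 fell. Klf5, a factor of proliferating crypt cells, had 355, 371 and 318 CPM in late libraries, against 233, 248 and 262 CPM at day 9 (log2 change 0.49 ± 0.09, adjusted p = 0.00804), and Isx rose by 0.36. Klf5 reached an adjusted p of 0.0512 without day 9 replicate 1, and Isx reached 0.096 at the highest over the fits that left out 1 library. Of 12 tested genes of other epithelia, the stomach genes Tff2 and Muc6 rose, at levels of at most 3.83 CPM, and Gkn3 and Cldn4 fell. None of these 4 calls held in every fit that left out 1 library (highest adjusted p 0.0507 for Tff2, 0.0511 for Gkn3, 0.0807 for Cldn4 and 0.0997 for Muc6).

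Markers of cells other than epithelium were low in every library. The summed level of 29 immune markers was 188, 184 and 152 CPM in late libraries and 135, 151 and 162 CPM at day 9. Of this, Kit, also an epithelial gene, gave 100, 93.1 and 99.4 CPM late and 53.2, 85.1 and 57.5 CPM at day 9. Ptprc, the pan-leukocyte CD45, ranged from 1.37 to 7.4 CPM late and from 1.84 to 5.34 CPM at day 9. The sum of 28 stromal, endothelial and muscle markers was 37.8, 63.6 and 44.9 CPM in late libraries and 44.1, 43.4 and 33.9 CPM at day 9. Among them Cdh5, the endothelial cadherin, was at 0 in all 6. Col1a2, a fibroblast collagen, had 0.368, 3.07 and 0.468 CPM in late libraries, against 0, 0 and 0.0486 CPM at day 9, and the macrophage receptor gene Csf1r 0.478, 1.8 and 0.468 CPM against 0, 0.0819 and 0 CPM; both rose, both were highest in day 21 replicate 2, and neither call held without day 9 replicate 1 or without day 9 replicate 3 (highest adjusted p 0.0838 and 0.0688). Of 7 neural and glial markers described, 4 (57.1%) rose, namely Map2, Ret, Nefl and Nefm. All 18 listed markers summed to 22.1, 26.2 and 23.1 CPM late and 11.9, 12.5 and 10.9 CPM at day 9. Gap43 was at 0 in all 6 libraries. Of 12 neuronal signalling genes, 5 rose (41.7%). Of 22 semaphorins and plexins, which are guidance cues and their receptors, 8 rose (36.4%) and 1 fell. Over all genes described, 11.2% rose. Only 13 of 42 listed neuronal signalling genes and 8 of 18 neural markers passed the filter on low counts. Members low at day 9 could pass through their late level alone, so these shares are not those of the full lists. Of the 4 neural marker calls, those of Nefl and Nefm did not hold in every fit that left out 1 library (highest adjusted p 0.111 and 0.125). The part of other cells in the rises of low-level genes was not tested.

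Cycling genes did not fall as a group. Of 36 mitosis genes, 10 rose (27.8%) and 1 fell. Plk1, a mitotic kinase, had 121, 169 and 156 CPM in late libraries, against 73.6, 70.5 and 77.8 CPM at day 9 (log2 change 1.01 ± 0.13, adjusted p = 0.00181), while Ccnb1, a mitotic cyclin, had 51.5, 58.1 and 52.5 CPM late and 105, 88.4 and 112 CPM at day 9 (-0.91 ± 0.10). With the sex covariate 2 mitosis genes were called higher and 1 lower, and 3 of the 11 calls held whichever library was left out. Of 37 replication genes, 3 rose and 2 fell: Dnmt1 had 318, 388 and 380 CPM late and 243, 197 and 260 CPM at day 9, and Pcna 146, 150 and 178 CPM late and 329, 270 and 343 CPM at day 9. Among the 5 replication calls, those of Dnmt1 and Pcna held whichever library was left out. Pcna had 148 CPM on day 16 and 154 CPM on day 7 in the single-cell libraries. The sum over the mitosis list was 5616, 6709 and 6049 CPM late and 5107, 4375 and 5488 CPM at day 9.

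In the list of 30 heat-shock and immediate-early genes, 12 fell (40%, against 13.0% of all genes) and 0 rose, with a median of -0.64, and 18 were not called. Hspa8, a constitutive chaperone, had 1005, 1329 and 1883 CPM in late libraries, against 3741, 4571 and 4333 CPM at day 9 (log2 change -1.58 ± 0.22, adjusted p = 0.00307). The transcription factor genes Jun (706, 725 and 611 CPM late, against 1068, 1464 and 896 CPM at day 9) and Atf3 (154, 218 and 105 CPM late, against 321, 604 and 314 CPM at day 9) fell as well, as did Hsp90aa1, Ier3 and Dusp1. Of the 12 calls, those of Hspa8, Hsp90aa1 and Ier3 held whichever library was left out, and the sex covariate left 5 falls. The list summed to 10032 CPM on day 16 and 10369 CPM on day 7 in the single-cell libraries. Of 28 p53 targets, 3 rose (among them Zmat3 and Phlda3) and 7 fell, 6 of these 10 calls holding whichever library was left out; Trp53inp1 had 29.2, 19.2 and 26.3 CPM late and 60.5, 155 and 114 CPM at day 9. Of 24 unfolded protein response genes, 1 rose and 4 fell (16.7%, list median 0.10), and 2 of these 5 calls held whichever library was left out. Of 19 secreted factors of senescence, 1 rose (5.26%), namely Tgfb1 (1.42 ± 0.20), and 2 fell (10.5%), namely Cxcl10 and Gdf15. The Tgfb1 call held whichever library was left out, and the other 2 did not (highest edgeR adjusted p 0.103 and 0.111). Of 40 interferon-stimulated genes, 0 were called by edgeR, 0 had an unadjusted p under 0.05 and 0 were called by DESeq2; Ifi44 had 0.589, 2.4 and 2.11 CPM late and 0.867, 0.451 and 20 CPM at day 9.

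The most uniform fall was in the protein synthesis machinery. Of 77 cytosolic ribosomal protein genes, 71 fell (92.2%) and 0 rose, with a median of -1.15. All 85 genes of the family summed to 40901, 44502 and 47920 CPM in late libraries, against 94690, 104976 and 94402 CPM at day 9. Rpl27, of the large subunit, had 100, 110 and 105 CPM late and 556, 613 and 568 CPM at day 9 (log2 change -2.46 ± 0.08, adjusted p = 4.21e-06). Rps10, of the small subunit, had 193, 202 and 212 CPM late and 958, 1074 and 916 CPM at day 9. The single-cell libraries did not show this: the family summed to 242987 CPM on day 16 and 234613 CPM on day 7, Rpl27 had 1561 CPM at day 16 (1549 to 1574) and 1607 CPM at day 7 (1594 to 1620), and the median change of the 77 genes was 0.02. The days differ, since the last single-cell library is of day 16 and the late bulk libraries are of days 21 and 30. Of 70 nuclear subunits of oxidative phosphorylation, which make ATP in mitochondria, 43 fell (61.4%) and 0 rose, with a median of -0.36; in the single cells their median change was 0.40. Of 77 mitochondrial ribosomal protein genes, 18 fell and 2 rose, and of 36 proteasome subunits 10 fell and 4 rose; the medians of -0.14 and -0.09 turned to 0.05 and 0.11 when scaled by library totals.

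Falls were also counted among genes with a named pseudogene. Of 279 genes for which RefSeq names a pseudogene with the same root symbol, and which short reads can therefore not always place, 177 fell and 10 rose, a median of -0.60 against 0.02 for the other genes. Such genes made up 2.11% of all genes described, 10.3% of the falls, 20.4% of the falls of at least 2-fold, and 0.675% of the rises. Among ribosomal protein genes, 53 of 59 with a named pseudogene fell and 18 of 18 without one, and the medians were -1.17 and -1.08. Of the 70 oxidative phosphorylation genes, 63 had no named pseudogene, and 36 of those fell (median -0.35). Whether read placement differed between the groups was not tested. The named pseudogenes in the table moved both ways: Rpl14-ps1 had 9.6, 9.84 and 11.1 CPM late and 0.0867, 0.0819 and 0.146 CPM at day 9 (6.56 ± 0.27), whereas Rps15a-ps6 had 1.1, 1.1 and 0.969 CPM late and 27.7, 36.1 and 28.7 CPM at day 9 (-4.86 ± 0.17).

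**Figure D4:**
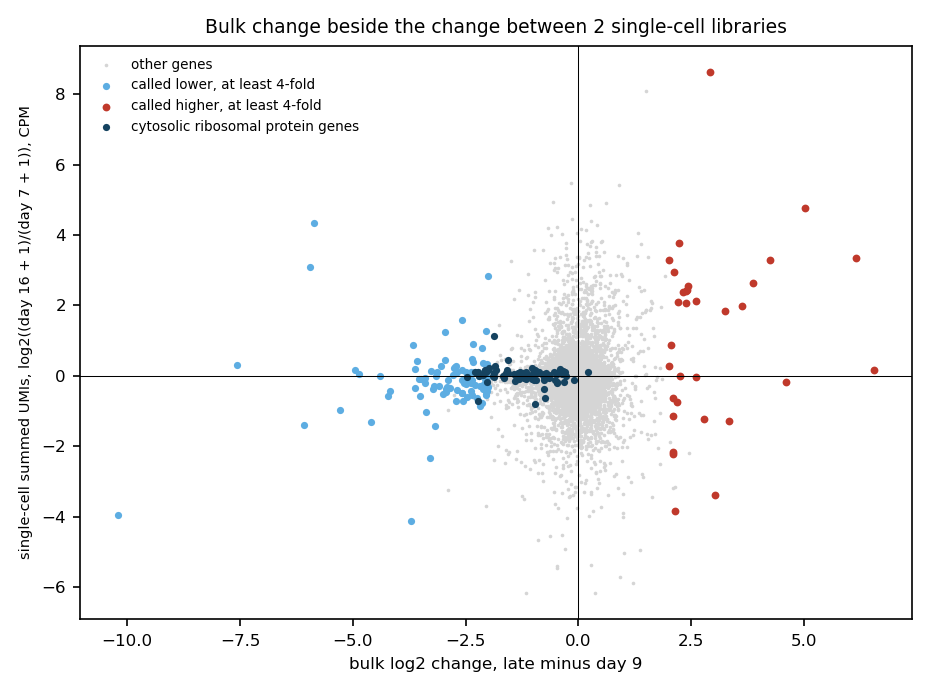
Bulk log2 change (late minus day 9) against the log2 ratio of summed UMIs between the day 16 and day 7 single-cell libraries (with a pseudocount of 1 CPM), for genes at 5 CPM or more in either. Ribosomal protein genes spread from -2.46 to 0.22 in bulk and lie around 0.02 in the single cells, and 19 of the 31 genes called at least 4-fold higher lie above 0.

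Several of the largest falls were of abundant genes with very close replicates. Atp5l, a subunit of ATP synthase, had 1.14, 0.967 and 1.1 CPM in late libraries and 203, 204 and 199 CPM at day 9 (log2 change -7.56 ± 0.10, adjusted p = 8.99e-08). It lay just outside the rule that set genes aside. In the single cells it had 550 CPM on day 16 and 445 CPM on day 7. Prnp, the prion protein gene, had 12.3, 13.1 and 11.4 CPM late and 416, 370 and 346 CPM at day 9 (-4.95 ± 0.11), and 7.48 CPM on day 16 and 6.56 CPM on day 7 in the single cells. Idi1, an enzyme of cholesterol synthesis, had 5.92, 5.37 and 9.39 CPM late and 162, 108 and 163 CPM at day 9 (-4.39 ± 0.27), and 87.6 CPM on day 16 and 88.6 CPM on day 7 in the single cells. Of the 23 cholesterol genes it was the 1 that fell, and 2 rose, among them Sc5d, whose call did not hold in every fit that left out 1 library (highest adjusted p 0.117). Fam60a, a subunit of a histone deacetylase complex, had 6.14, 5.1 and 8.42 CPM late and 123, 122 and 118 CPM at day 9, and 67 CPM on day 16 and 101 CPM on day 7 in the single cells. The glycolytic enzyme gene Pgam1 had 33.5, 35.9 and 31.7 CPM late and 287, 258 and 289 CPM at day 9, and 259 CPM on day 16 and 212 CPM on day 7 in the single cells. Prex2, Vmn1r58, Dcdc2c and Psg23 had between 3.85 and 6.72 CPM at day 9 and at most 1 count in the late group. The last 3, without a late count, were at least 167-fold, 161-fold and 122-fold lower. All 4 were under the 10 CPM at day 9 that the set-aside rule asks for, and a counting difference was not tested. In the single cells Vmn1r58 and Psg23 had 0 CPM on days 7 and 16. Dcdc2c had 0.0266 CPM on day 7 and 0.103 CPM on day 16, and Prex2 0.425 CPM and 0 CPM. The other genes by the rule for the largest falls were Nlrp1a, Aldh8a1, Slc7a14, Iqcg and Cdh26, and Aldh8a1 differed among the day 9 libraries, at 16.4, 0.451 and 15.5 CPM, and lost its call in 4 of the 6 fits that left out 1 library (highest adjusted p 0.0759).

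Among metabolic lists, 5 of 27 genes of fatty acid oxidation and ketogenesis fell (18.5%, against 13.0% of all genes) and 0 rose. With the sex covariate 1 fall and 2 rises were called, and 1 of the 5 calls, that of Hadhb, held whichever library was left out. Hadhb, of the mitochondrial trifunctional protein, had 82.7, 76.5 and 69.7 CPM late and 242, 265 and 246 CPM at day 9. Of 20 glycolysis genes, 2 rose and 5 fell; Hk1, a hexokinase, had 17.6, 16.3 and 17.1 CPM late and 7.59, 7.13 and 7.38 CPM at day 9 (log2 change 1.21 ± 0.11). Of 319 zinc finger genes named Zfp, 16 rose and 54 fell (16.9%), with a median of -0.12 that turned to 0.07 under library totals. Of 28 potassium channel genes, 8 rose (28.6%, against 11.2% of all genes) and 1 fell. Kcns3, a silent voltage-gated subunit, had 4.45, 8.07 and 4.51 CPM late and 1 count in the day 9 group, a ratio of 389 (69.5 to 15399). Of 17 collagens, 5 rose (29.4%) and 0 fell. Only 17 of 44 collagens and 29 of 83 potassium channel genes passed the filter on low counts. Members low at day 9 could pass through their late level alone, so these shares are not those of the families. Grm4, a glutamate receptor, was far higher in 1 late library than in the others. It had 18, 2.63 and 2.34 CPM late and 0.954, 0.697 and 0.486 CPM at day 9 (adjusted p = 0.0319 by edgeR). Its call held without day 21 replicate 1 and was lost without any single day 9 library (adjusted p 0.0853 to 0.104). Dcdc2b and Zfhx4 completed the 15 largest rises.

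Of 1189 short noncoding RNA genes and their host genes, 851 were at 0 in all 6 libraries and 43 were tested and described, of which 30 rose (69.8%) and 1 fell. The median of those 43 was 3.69 (3.49 with bounds). Members without a day 9 count passed the filter through the late libraries alone, so neither value describes the family. Mir6236, a microRNA gene, had 72.6, 143 and 72.9 CPM in late libraries and no count at day 9, at least 2200-fold higher. Scarna17, a small Cajal body RNA, had 5.22, 8.74 and 8.99 CPM late and no count at day 9, at least 175-fold higher. The small nucleolar RNAs Snord96a, Snord104, Snord2, Snord12 and Snord100 were likewise without a count at day 9 and had between 1 and 2.37 CPM in each late library. All of these except Snord96a were without a count in both day 14 libraries too. The library kit of the 6 libraries is not given in the sources used here.

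**Figure D5:**
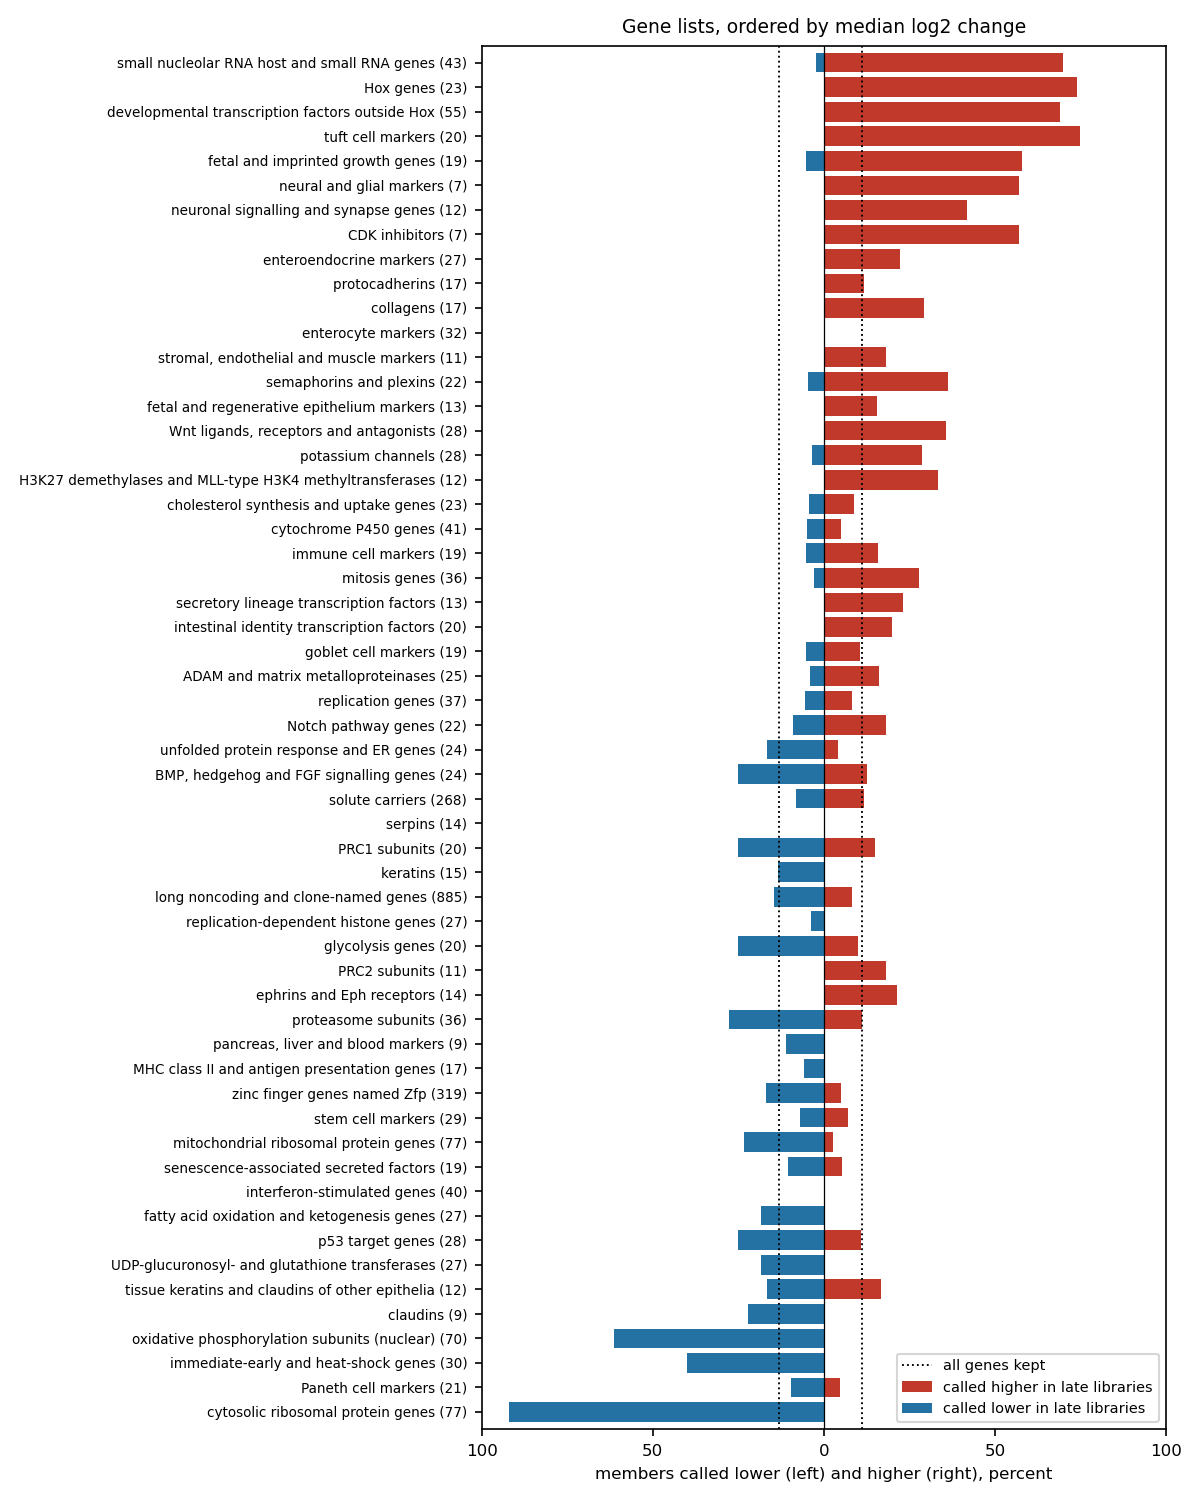
Share of each list's tested members called lower (left, blue) and higher (right, red) in late libraries, ordered by median log2 change with the number of members in brackets; dotted lines mark the shares over all genes described (13.0% lower and 11.2% higher). Small RNA, Hox, other developmental factors and tuft markers reach 69.1% to 75% higher, and ribosomal protein genes 92.2% lower.

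Within the late group, day 30 (1 library) was set against day 21 (2 libraries), with the spread of the day 9 and day 21 libraries assumed for the lone one. The edgeR quasi-likelihood test called 0 genes, with 1086 (8.21%) at an unadjusted p under 0.05, whereas DESeq2 called 233, 22 higher and 211 lower. Without day 21 replicate 2 the edgeR count was 269, and without day 21 replicate 1 it was 5. Olfm4 and Lgr5 had log2 differences of 0.74 and 0.53 for day 30 minus day 21, and Cdkn2b of -1.26, and none was called. Changes from day 9 by day mostly pointed the same way in the lists above, with Hox medians of 3.37 at day 21 and 3.89 at day 30, and Paneth medians of -0.51 at day 21 and -2.86 at day 30. Enterocyte medians differed in sign, 0.84 at day 21 and -1.48 at day 30. The 2 day 21 libraries were unlike each other in both lists. Enterocyte and Paneth sums were 16812 and 15132 CPM in day 21 replicate 1. They were 6413 and 3206 CPM in replicate 2, and 3927 and 2229 CPM at day 30. Day 21 replicate 1 was also the only late library of the female type, so day, library and sex cannot be told apart here.

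In the 2 bulk libraries of day 14, 533 of the 619 rises of at least 2-fold (86.1%) and 332 of the 475 such falls (69.9%) stood nearer to the day 9 level than to the late one. A day 14 level beyond both groups was counted with the closer group, so these shares do not place day 14 between them. Igf2 had 2.54 and 2.06 CPM of library totals at day 14, against means of 4.84 CPM at day 9 and 31 CPM late. Atp5l had 423 and 468 CPM, against 202 and 1.07 CPM. Setd1b, a rise under 2-fold, had 7.08 and 11.5 CPM, against 67.8 and 124 CPM. Hoxb13 was intermediate at day 14, at 3.16 and 2.34 CPM of library totals, and Cdkn2a was at 0.0891 and 0 CPM. Between the single-cell libraries of day 16 and day 7, of 3971 and 4795 barcodes with 1000 UMIs or more and 5 barcodes shared, a gene at 5 CPM or more was higher at day 16 in 35.7% of all cases. Of the bulk rises of at least 4-fold it was higher in 19 of 31 (61.3%), 54.8% were at least 2-fold higher, against 5.76% of all genes, and 22.6% at least 2-fold lower, against 6.97% of all genes. Over all 832 measured bulk rises, 34.3% were higher at day 16. Of the bulk falls of at least 4-fold, 58.8% were lower at day 16, against 64.3% of all genes. With 1 library a day there is no test. Barx1 had 8.98 CPM at day 16 (8.06 to 9.97) and 0.0266 CPM at day 7, and Hoxb13 9.18 CPM (8.25 to 10.2) and 0 UMIs at day 7.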

How the data were processed

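The bulk table holds counts of reads per gene, whole numbers that the authors deposited without normalization, and the single-cell files hold deposited UMI counts per gene and barcode. The submitters' processing notes name Cell Ranger 3.0.2, DESeq2, SICER 0.0.1, Bowtie2 2.3.4.3 and STAR 2.5.3a, and the build mm9; the gene annotation and counter were not given in the sources used here. Of 24014 genes, 23838 were matched to a chromosome through RefSeq by symbol or synonym, and 27 whose symbol had become a date are not named. 1 column of the table, whose header fits no sample, was not used. Members and lists were chosen with earlier results of these data known.

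The 6 libraries were fitted with a mean per group in edgeR 4.0.16 (R 4.3.3): genes were kept by filterByExpr and scaled by TMM, the quasi-likelihood F test was used, and p-values were adjusted by Benjamini and Hochberg's method over the 13668 genes tested, with a threshold of 0.05. Genes set aside stayed in the fit and in the adjustment and were left out of counts and lists. CPM use TMM-scaled library sizes, except at day 14 (library totals). SE is the log2 change divided by the root of F. Residual degrees of freedom were 4, so p-values rest on a spread shared across genes. A gene without a count in 1 group is given as a bound against 3 counts over that group, and one with 1 to 3 counts as a ratio with an exact 95% interval, for counting error only. Named genes were the 15 largest called rises and 15 largest called falls with a mean of at least 1 log2 CPM, the 10 largest rises between -1 and 1 log2 CPM, and up to 5 called genes per list by adjusted p; others were named after their values were seen. Counts were also simulated from the pooled means and spread of the 6 libraries, without any sex or day structure among the late ones. With 200 of 13668 genes changed, all averaging at least 1 CPM, the test recovered 78% of 2-fold and 92% of 4-fold rises. It recovered 72% of 2-fold and 94% of 4-fold falls. False calls numbered 7, or 4% of the calls. Recovery at lower levels was not measured. The data had far more called genes and differing late libraries, so these rates need not hold for the comparison itself.

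Replicates differed by more than counting noise (chi-square per degree of freedom of at least 12.8), so none was counted as a repeat. Replicate numbers did not pair the libraries: correlations of same-numbered deviations were 0.0651, 0.0269 and -0.105. Single-cell UMIs were summed over barcodes with 1000 or more (2000 as the alternative), with no doublet removal, and described without a test. Promoter stretches cover 250 bases before RefSeq starts; fewer than 80% of the genes of most sets had one, so a check of promoter composition over sets is void. Alternatives were other scalings, filters, DESeq2 1.42.0, a mean per day, all 8 bulk libraries, a replicate block, leaving out each library, and, added later, library sex and genes with named pseudogenes. Some genes are not reported here.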

Additional observations from a re-analysis of the deposited data

How the results depend on the processing

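The count of 3202 called genes (1482 higher, 1720 lower) moved by over 1.5 times with the replicate block, library sex and 3 of the left-out libraries, and its split moved with scaling. Scaling by library totals gave 3449 higher and 940 lower. Library sex as a covariate gave 1619 (785 higher, 834 lower) and kept 1357 of the 3202. Leaving out each library in turn gave between 1986 and 2872 calls, of which between 768 and 1300 were higher and between 1103 and 1572 lower. DESeq2's size factors (3218), its Wald test (3819), no filter on low counts (3120), a floor of 1 CPM (3009), a mean per day (2888) and all 8 libraries (3068) stayed within 1.5 times. No called gene changed sign in any of these fits; the causes of these moves were not tested. A fit with the replicate number as a block gave 1227 calls (438 higher, 789 lower); since the numbers did not pair the libraries, a call lost there is not read as a weaker effect. Day 30 against day 21 gave 0 calls by edgeR, 233 by DESeq2 (22 higher, 211 lower), and between 0 and 269 without single libraries (0 to 4 higher, 0 to 265 lower). Values that turned sign were of genes that were not called: Clps at 0.06 and Pnlip at -5.10 with the sex covariate, and Ifi44 at 1.36 with the block and at 1.35 without day 9 replicate 3 (between -2.64 and 1.35 over the fits without 1 library). Depth limits genes under about 1 CPM, where a group holds few counts. A mixed set of female and male late libraries against female day 9 libraries means that sex and time cannot be fully told apart. With the sex covariate the late change rests on day 21 replicate 1 alone, so a call kept or lost there reflects that library.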

Other observations

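Of the 18 genes set aside for a possible counting difference, Sumo2, a ubiquitin-like modifier, had 0.258, 0.2 and 0.301 CPM in late libraries and 196, 172 and 194 CPM at day 9. It had 358 and 352 CPM of library totals at day 14, and 371 CPM on day 16 and 471 CPM on day 7 in the single-cell libraries. Sec61g, a subunit of the translocon, had 0.368, 0.533 and 0.501 CPM late and 76.5, 81.7 and 82.8 CPM at day 9, and 226 CPM on day 16 and 236 CPM on day 7 in the single cells. Cmah, a sialic acid hydroxylase, had 0.589, 0.767 and 0.334 CPM late and 113, 102 and 144 CPM at day 9. In the single cells it had 0.206 CPM on day 16 and 0.0797 CPM on day 7. A further 6 genes lay just outside the rule, with a highest late level between 1 and 2 CPM. Of the 424 X- or Y-linked genes tested, 24 were called higher and 89 lower.

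Summed over all 1189 genes of the family, short noncoding RNAs and their host genes had 174, 240 and 174 CPM late. At day 9 they had 33.7, 42 and 40.5 CPM. Replication-dependent histone genes, whose messages have no poly(A) tail, gave 0 rises and 1 fall among 27. All 68 of the family summed to 89.7, 76.5 and 84.1 CPM late and 85.1, 95.8 and 86.7 CPM at day 9.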
